A study of Mus musculus with 10 samples.

Results

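The genes described here take fatty acids into the fat cell and build them into triglyceride. They are *Lpl*, *Cd36*, *Fabp4*, *Gpd1*, *Gpam*, *Agpat2*, *Lpin1*, *Dgat1*, *Dgat2* and *Pck1*, 10 of the 34797 gene names on the array. They were chosen by function, with earlier results of these data known. Every probe that the array's annotation gives to 1 of these names was used, except control spots, which gave 14 probes. Each probe is a DNA strand of 60 bases whose spot is brighter the more labelled RNA it has bound.

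RNA came from epididymal white adipose tissue (WAT), the fat pad beside the epididymis, of 10 adult male mice labelled C57BL/6J (C57BL/6JOlaHsd in the treatment protocol). All 10 belonged to 1 group, numbered 1 to 10 here by the replicate number in their labels. They were 9 weeks old at the start, ate a low fat diet for 3 weeks and a high fat diet (HFD) for 12 weeks at 29°C, received daily injections of desferrioxamine (DFO), an iron chelator, at 100 mg/kg for 5 days, and were killed on day 6 after 2 h without food. Each mouse was measured on 1 array in the red dye, Cy5, beside a pool of RNA of all mice of the wider study in the green dye, Cy3. Because the pool also holds RNA of treated mice, these 10 included, it is no control group, and since no control mouse is among these samples, no effect of DFO or of the diet can be read from them. All values below are log2 ratios of Cy5 over Cy3 unless said otherwise, so that 1 unit is a doubling, and they measure how the mice differ from each other.

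Fat cells store energy as triglyceride, a glycerol backbone that carries fatty acids. Lipoprotein lipase in the capillaries frees fatty acids from circulating lipoproteins, membrane and cytosolic carriers bring them into the cell, and acyltransferases then add them to glycerol 3-phosphate in turn. The backbone comes from glucose through glycolysis or, in the fasted state, from smaller carbon compounds by glyceroneogenesis.

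The sequences of 3 probes are given because the design of these probes bears on how their values are read. The second probe of *Lpl* (chr8:71425050-71425109, mm9) ranked the mice differently from the first, which lies 5217 bases away. The *Dgat1* probe (chr15:76333128-76333274, mm9) covers 147 bases of genome with 60 bases of sequence, so 87 bases between its ends are absent from the probe, as in spliced RNA. The second *Agpat2* probe (chr2:26449107-26449166, mm9) ends in the letters TAG, in capitals, a stop codon when read from the first base. Gene models of mm9, the build in which the scanner files give positions, were not used here, so exons are not named.
*Lpl* probe 2: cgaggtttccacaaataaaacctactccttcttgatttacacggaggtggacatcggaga
*Dgat1* probe: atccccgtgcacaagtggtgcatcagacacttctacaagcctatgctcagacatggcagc
*Agpat2* probe 2: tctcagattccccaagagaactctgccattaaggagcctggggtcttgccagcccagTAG

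Regions upstream of the start site were taken from RefSeq (GRCm38.p6), which gave 6 for 5 of the genes (*Agpat2*, *Pck1*, *Cd36*, *Lpin1* and 2 for *Gpam*). Those of *Pck1* and *Cd36* are shown, the gene with the widest spread between mice and the gene in which mice 4 to 7 were the highest and not the lowest. In *Pck1* (chr2:173152823-173153072, plus strand) the capitals mark TTACGTCA, which reads TGACGNAA on the opposite strand, a form of the cAMP response element, at base -93. In *Cd36* (chr5:17835897-17836146, minus strand) the capitals mark TGACCT, which reads AGGTCA on the opposite strand, the half-site of nuclear receptors, at base -228.
*Pck1* upstream: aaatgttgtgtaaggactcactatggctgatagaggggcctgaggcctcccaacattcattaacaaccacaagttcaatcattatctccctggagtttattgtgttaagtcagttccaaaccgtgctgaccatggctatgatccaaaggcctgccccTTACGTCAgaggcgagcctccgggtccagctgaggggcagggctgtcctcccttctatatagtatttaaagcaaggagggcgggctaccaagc
*Cd36* upstream: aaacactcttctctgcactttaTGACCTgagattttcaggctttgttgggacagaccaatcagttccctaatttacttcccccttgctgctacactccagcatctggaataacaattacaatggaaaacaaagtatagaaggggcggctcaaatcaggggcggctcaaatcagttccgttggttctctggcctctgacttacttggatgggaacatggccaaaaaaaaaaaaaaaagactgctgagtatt

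TGACGNAA, searched on both strands, occurred in the region of *Pck1* and in 1.39% of the 32851 promoter regions in the RefSeq table. AGGTCA occurred in those of *Cd36*, *Lpin1* and 1 of the 2 *Gpam* regions, against 14.0% of all regions. CCAAT lay in the *Cd36* region and in the other *Gpam* region, against 33.8% of all. TATAAA and CACGTG, held by 12.4% and 6.02% of all regions, were in none of the 6. A match describes letters, not binding.

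Each of 5 slides held 2 of the arrays. The median Cy5 signal of an array was 54.8 to 81.3, above a local background of 32 to 37, and no spot was saturated. The 10 mice did not form 1 cloud: the first principal component of all 25062 tested probes held 76.2% of the variance, and mice 4, 5, 6 and 7 stood apart on it with scores of -0.28 to -0.45, against 0.14 to 0.37 in the others. No label sets these 4 mice apart. They were picked from these same values, the genes described here among them, so their placing below is description only. No test was made between them and the others. A probe was tested where it was well above background in both dyes on at least 5 arrays and had a value on every array. Of the 14 probes, 13 passed the first condition, and 12, at least 1 for each gene, passed both. Left out were the second *Lpin1* probe, well above background in Cy5 on 3 arrays and in Cy3 on 0, and the second *Lpl* probe, whose spot for mouse 10 carried an outlier flag.

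The test asked whether a gene varied between mice by more than 1 RNA varies from array to array. For this, the variance of log2 Cy5 was compared with that of log2 Cy3 on the same spots, since Cy3 was the same pool throughout. Each mouse had its own RNA sample and dyes were not swapped. A larger Cy5 variance can therefore also hold differences in the handling of the samples or in the dye. In the paired test of Pitman and Morgan, adjusted over all 25062 probes by Benjamini-Hochberg, the Cy5 variance was larger for 59.7% of all probes. It was larger for 9 of the 12 probes of these genes (75%), which belong to 8 of the 10 genes. *Lpl*, *Fabp4* and the second *Gpam* probe did not pass. Without normalization between arrays 4 of the 12 probes passed, those of *Dgat2*, *Lpin1*, *Pck1* and the first of *Gpam*, as against 4694 of the 25062. The median SD of the log2 ratio was 0.59 over the 12 probes and 0.18 over all tested probes, of which the 90th percentile was 0.52.

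**Figure D1:**
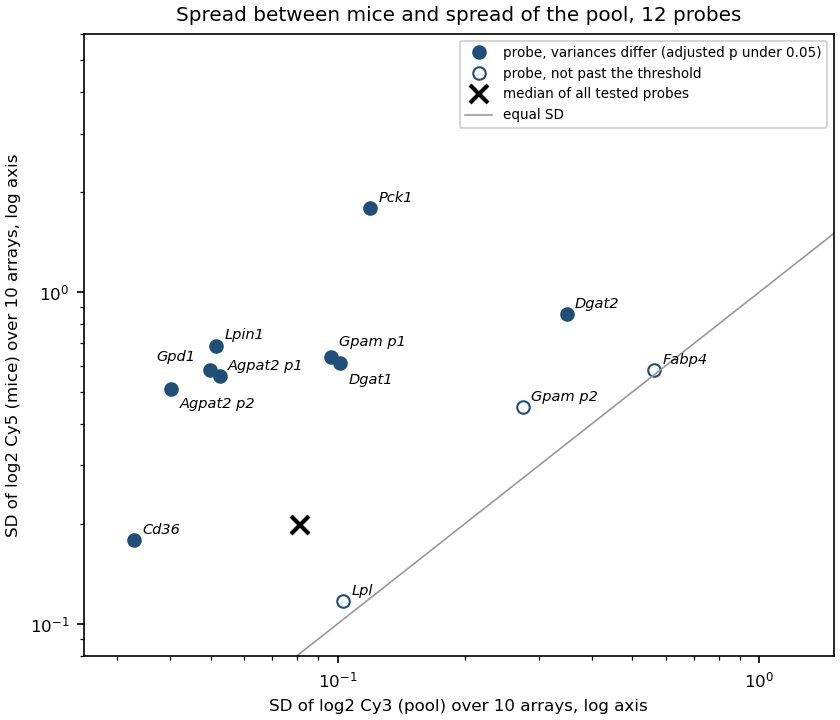
Spread of the 12 tested probes, with the SD of log2 Cy3 (the pool) on the horizontal and of log2 Cy5 (the mice) on the vertical log axis, each over 10 arrays. Filled points passed the variance test, p1 and p2 are the first and second probe of a gene, the cross is the median of all tested probes, and *Pck1* has the highest Cy5 SD (1.79), while *Fabp4* and *Lpl* lie close to the line of equal SD.

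Most of the probes had the same 4 mice lowest, in varying order. In 11 of the 12 probes, from 9 genes, mice 4, 5, 6 and 7 held the 4 lowest log2 ratios, as they did in 23.2% of all probes. In the remaining probe, that of *Cd36*, they held the 4 highest, as in 19.2% of all probes. Over the 12 probes, mice 4, 5, 6 and 7 were below a probe's own median in 11 each, mouse 2 in 9, mouse 10 in 4, mice 1, 3 and 9 in 1 each, and mouse 8 in 0. For *Lpl* this placing is narrow, as mouse 6 at 0.01 and mouse 10 at 0.03 differed by less than the SD of Cy3, and without background subtraction or with the scanner's own ratios *Lpl* dropped out and the count was 10. The count of 11 also rests on the correction of dye bias with signal strength (loess), because with each array centred on its median alone the same mice held the 4 lowest in 3 of the 12 probes (*Pck1*, *Dgat2* and the second of *Gpam*) and in 7.03% of all probes. That centring moved the median log2 ratio of all tested probes to 0.36. It made the mean of the brightest probe positive in each of the 10 genes except *Pck1*, so the sign of a mean is not read below. In the authors' normalized table, which holds 13 of the 14 probes, these mice were the 4 lowest in 8. These 13 include the second *Lpl* probe, which is not among the 12 above. Both probes of *Lpl* and both of *Agpat2* did not have this order there. The share over all probes of that table was not computed. In bulk tissue, fewer adipocytes and less RNA of a gene per adipocyte cannot be told apart.

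**Figure D2:**
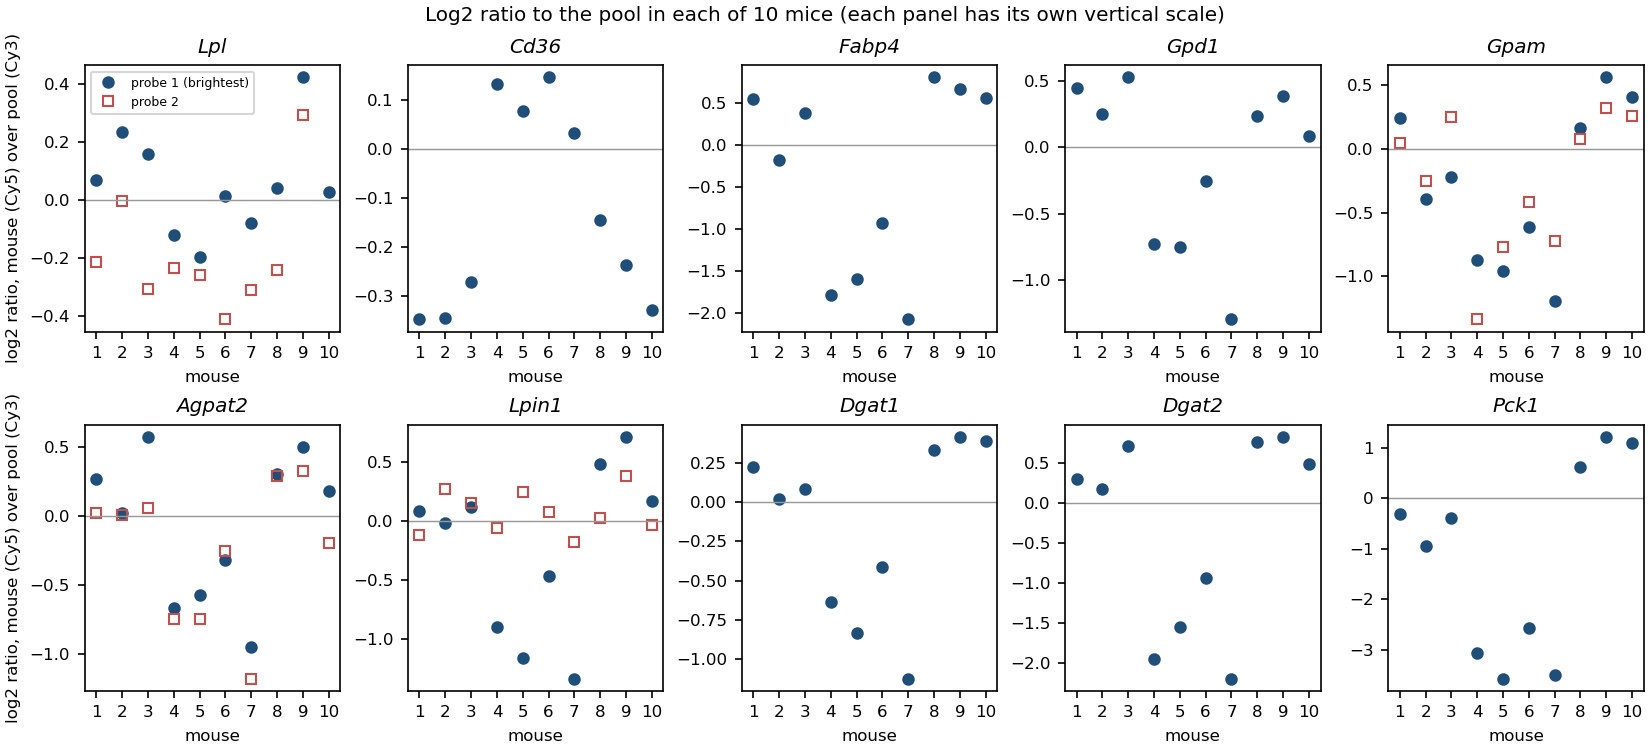
Log2 ratio of mouse over pool (vertical axis, a scale of its own in each panel) for each of the 10 genes in mice 1 to 10 (horizontal axis), with filled circles for the brightest probe and open squares for the other. Mice 4 to 7 are lowest in all panels but *Cd36* for the brightest probe, and *Pck1* spans from -3.56 to 1.22.

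Cell type markers moved with these genes. Of 7 adipocyte markers (*Adipoq*, *Plin1*, *Cidec*, *Lipe*, *Lep*, *Cfd* and *Retn*) 6 were tested, all 6 passed the variance test, and in all 6 mice 4 to 7 held the 4 lowest values. Over all probes, 59.7% passed the test, and these mice held the 4 lowest values in 23.2% and the 4 highest in 19.2%. With median centring in place of loess the share for the 4 lowest was 7.03%. The orders of the marker lists, here and below, were not computed with that centring. These lists were chosen with earlier results of these data known. Of the 2 *Retn* probes neither met both conditions for a test, but at least 1 was well above background in Cy5 on all 10 arrays. All 7 markers of the labelled tissue were thus present. The mean of the 6 was -2.70 to -1.55 in mice 4 to 7 and -0.16 to 0.65 in the other 6. All 8 macrophage markers (*Emr1*, *Cd68*, *Csf1r*, *Lyz2*, *Itgax*, *Trem2*, *Mrc1* and *Msr1*) passed the test, with mice 4 to 7 the 4 highest in each, and their mean was 0.80 to 1.10 in those mice and -1.25 to -0.10 in the others. The part of these markers in the results for *Pck1*, *Dgat2*, *Cd36* and the others was not tested.

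The other lists moved less uniformly. Of 5 endothelial markers, 4 had mice 4 to 7 lowest, with list means of -0.73 to -0.41 against -0.04 to 0.26, and all 3 blood markers did, with means of -2.06 to -1.34 against -0.95 to 0.51. Of 5 progenitor markers, 2 had these mice lowest and 1, *Col1a1*, highest. Of 4 mesothelial markers, 2 had them lowest. Over all probes, these mice were the 4 lowest in 23.2% and the 4 highest in 19.2%, and such short lists cannot be told from those shares by eye. *Prm1*, *Prm2* and *Tnp1*, genes of sperm cells, were highest in mouse 2, at -1.37, -0.79 and -0.89. The source of this RNA was not tested. Of the brown fat markers, *Cidea* had mice 4 to 7 lowest, and *Ucp1* was well above background on 1 array.

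**Figure D3:**
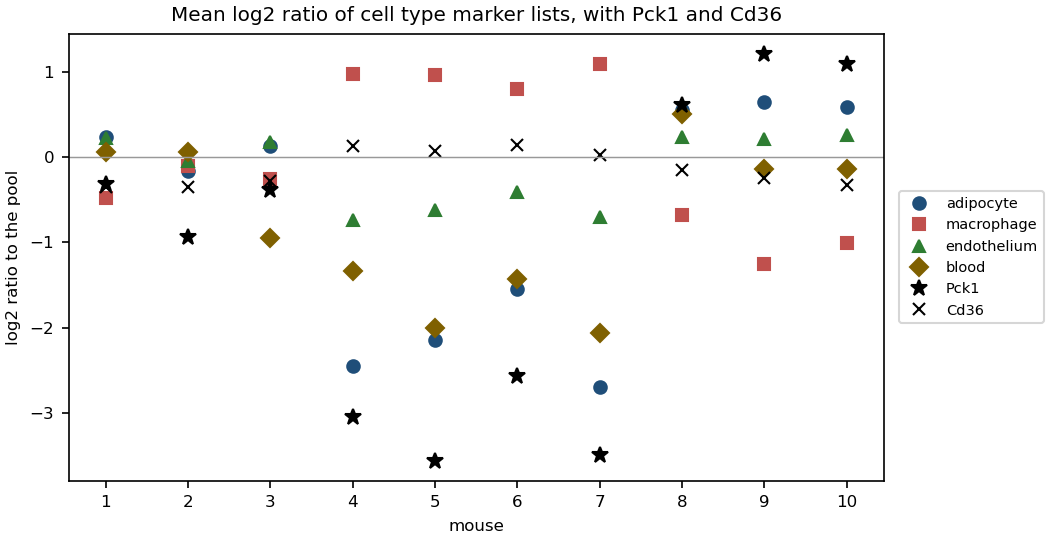
Mean log2 ratio to the pool (vertical axis) of the adipocyte, macrophage, endothelium and blood marker lists in mice 1 to 10 (horizontal axis), with the values of *Pck1* and *Cd36*. In mice 4 to 7 the adipocyte mean is at or below -1.55 and the macrophage mean at or above 0.80, *Pck1* lies at or below -2.57, and *Cd36* is above 0.

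Lipoprotein lipase, the product of *Lpl*, frees fatty acids from lipoproteins on the capillary wall. The first *Lpl* probe ranged from -0.20 in mouse 5 over a median of 0.04 to 0.42 in mouse 9, with a mean of 0.06 ± 0.18 (SD, n = 10). The values of 9 mice lay between -0.20 and 0.23, and mouse 9 stood above them. The SD of Cy5 was 0.12 and that of Cy3 0.10 (adjusted p = 0.758), so a spread between mice beyond that of the pool was not detected. With median centring the SD of the ratio was 0.37 and the adjusted p 0.011. The second probe ranged from -0.41 in mouse 6 over a median of -0.24 to 0.29 in mouse 9 (SD 0.21, n = 9). Both probes placed mouse 9 highest, but in the second probe mice 4 to 7 did not stand lowest. There, mouse 3 at -0.31 and mouse 8 at -0.24 lay below mouse 4 at -0.23. With the flagged spot of mouse 10 kept, or without mouse 10, this probe passed the variance test (adjusted p = 0.00611 and 0.00389).

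*Cd36* encodes the membrane carrier and scavenger receptor that takes up long-chain fatty acids. Its log2 ratio ranged from -0.35 in mouse 1 over a median of -0.19 to 0.15 in mouse 6, with a mean of -0.13 ± 0.21 (SD, n = 10). Mice 4 to 7 lay between 0.03 and 0.15 and the other 6 between -0.35 and -0.15, so the values did not overlap, with a gap of 0.18 between them. The whole range is a 1.41-fold difference. The pool was steady on this spot (SD of Cy3 0.03 against 0.18 for Cy5), and the variances differed (adjusted p = 1.65e-05), though not without normalization between arrays (adjusted p = 0.105). The 4 highest values were those of mice 4 to 7 also without background subtraction, with the scanner's own ratios, with median centring and in the authors' normalized table. *Cd36* is also known as a gene of macrophages.

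*Fabp4* encodes the abundant fatty acid carrier of fat cell cytosol. The log2 ratio ranged from -2.08 in mouse 7 over a median of 0.11 to 0.80 in mouse 8, a 7.37-fold range, with a mean of -0.36 ± 1.13 (SD, n = 10). Mice 4 to 7 lay at or below -0.93 and the others at or above -0.17. Yet the variance test did not pass (adjusted p = 0.823), and the SD was 0.56 in Cy3 and 0.58 in Cy5. Normalization between arrays sets the mean of log2 Cy5 and log2 Cy3 by rank. For so bright a probe this ties the 2 SDs, and in mice 4, 5 and 7 the 2 log2 values had the same sum. The test on these values thus cannot tell which dye varied. Without that normalization it did not pass either (adjusted p = 0.698). The pool's signal was 171644 in the array of mouse 7 and 55745 in that of mouse 8, a 3.08-fold range where the median over all tested probes was 1.36-fold. On the same spots the signal of the mice ran from 95753 in mouse 4 to 282092 in mouse 8, so that Cy3 was high where Cy5 was low. Without mouse 8 the test passed (adjusted p = 0.00722). The log2 ratio of *Fabp4* thus joins a difference in Cy5 with an opposite one in Cy3, and what made Cy3 vary was not tested.

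**Figure D4:**
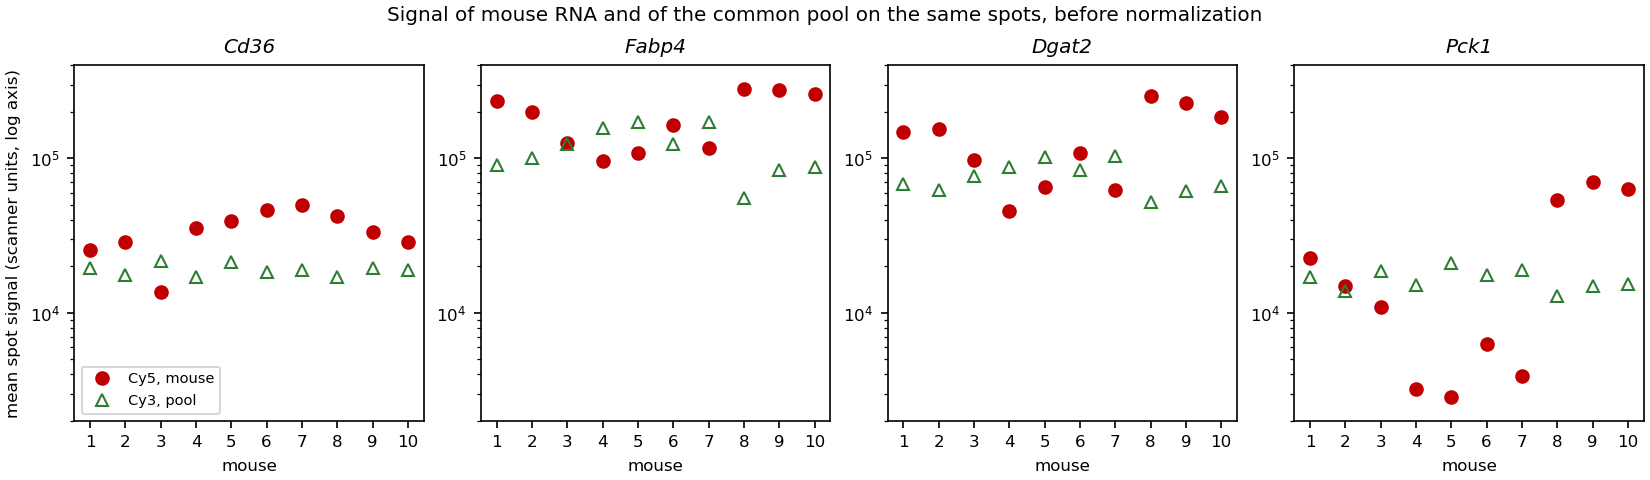
Mean spot signal before normalization in scanner units (log axis) in the arrays of mice 1 to 10 for *Cd36*, *Fabp4*, *Dgat2* and *Pck1*, with filled circles for the mouse (Cy5) and open triangles for the pool (Cy3). The pool spans 1.27-fold for *Cd36* and 1.63-fold for *Pck1*, and for *Fabp4* and *Dgat2* it is highest in the array of mouse 7 and lowest in that of mouse 8.

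The glycerol backbone is made by glycerol 3-phosphate dehydrogenase, encoded by *Gpd1*, which reduces an intermediate of glycolysis. *Gpd1* ranged from -1.30 in mouse 7 over a median of 0.16 to 0.53 in mouse 3, with a mean of -0.11 ± 0.62 (SD, n = 10), a 3.53-fold range. Mouse 7 was lowest by 0.55, followed by mice 5, 4 and 6, and the other 6 mice lay between 0.08 and 0.53. The SD of Cy5 was 0.58 against 0.05 for Cy3 (adjusted p = 4.57e-07). Without normalization between arrays the call was lost (adjusted p = 0.108).

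The first fatty acid is added by glycerol 3-phosphate acyltransferases, of which *Gpam* encodes the mitochondrial enzyme. Its first probe ranged from -1.19 in mouse 7 over a median of -0.31 to 0.56 in mouse 9, with a mean of -0.29 ± 0.62 (SD, n = 10). Mice 2 and 3, at -0.39 and -0.22, lay between mice 4 to 7 and the other 4, which were all above 0. The test passed (adjusted p = 7.29e-05). The second probe is dimmer, with Cy5 signals of 70.5 to 228, and ranged from -1.34 in mouse 4 to 0.32 in mouse 9 (SD 0.55). It did not pass the test (adjusted p = 0.237) but did without mouse 4 (adjusted p = 0.00236), in whose array the pool's signal on this probe was the highest of the 10. Both probes put mice 4 to 7 lowest and mouse 9 highest.

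*Agpat2* encodes the main acyltransferase of fat cells for the second fatty acid, whose loss causes lipodystrophy. The first probe ranged from -0.95 in mouse 7 over a median of 0.10 to 0.57 in mouse 3, with a mean of -0.07 ± 0.53 (SD, n = 10). The second, 497 bases away, ranged from -1.18 in mouse 7 over a median of -0.10 to 0.32 in mouse 9, with a mean of -0.24 ± 0.49 (SD, n = 10). The probes agreed on the low mice, with mouse 6 closest to the others in both, and differed on mouse 3, at 0.57 and 0.06, and on mouse 10, at 0.18 and -0.20. Both passed the variance test (adjusted p = 1.70e-06 and 1.38e-06), and neither did without normalization between arrays (0.0656 and 0.0849). In the authors' normalized table mice 4 to 7 were not the 4 lowest for either probe.

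*Lpin1* encodes lipin 1, the phosphatase that turns phosphatidate into diacylglycerol and also acts in the nucleus. The first probe ranged from -1.34 in mouse 7 over a median of 0.03 to 0.72 in mouse 9, a 4.15-fold range, with a mean of -0.23 ± 0.70 (SD, n = 10). Mice 4 to 7 lay at or below -0.47 and the other 6 at or above -0.02. The SD of Cy5 was 0.69 against 0.05 for Cy3 (adjusted p = 1.39e-06). The dim second probe, not tested, ranged from -0.18 to 0.38 in no such order.

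Diacylglycerol becomes triglyceride through *Dgat1* and *Dgat2*, which encode unrelated acyltransferases for this last step. *Dgat1* ranged from -1.13 in mouse 7 over a median of 0.05 to 0.42 in mouse 9, with a mean of -0.15 ± 0.56 (SD, n = 10). *Dgat2* ranged from -2.20 in mouse 7 over a median of 0.24 to 0.83 in mouse 9, with a mean of -0.33 ± 1.20 (SD, n = 10). Both had the same 4 low mice in the order 7, 5, 4, 6 for *Dgat1* and 7, 4, 5, 6 for *Dgat2*, and both had mouse 9 highest. The span from the lowest to the highest mouse was 2.93-fold for *Dgat1* and 8.17-fold for *Dgat2*, and the difference between these spans was not tested. For *Dgat2* the widest gap, 1.11, lay between mouse 6 at -0.93 and mouse 2 at 0.18. Both passed the variance test (adjusted p = 5.91e-05 for *Dgat1* and 1.24e-05 for *Dgat2*), *Dgat1* not without normalization between arrays (adjusted p = 0.063). As for *Fabp4*, the pool varied on the *Dgat2* spot, from 51800 in the array of mouse 8 to 103126 in that of mouse 7. The SD of Cy3 was 0.35 against 0.86 for Cy5, and on this bright spot too the normalization between arrays ties the dyes.

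*Pck1* encodes the cytosolic phosphoenolpyruvate carboxykinase, which drives glyceroneogenesis in fat and whose transcription is known to respond to cAMP and to PPARγ. It had the widest spread of the 10 genes, from -3.56 in mouse 5 over a median of -0.66 to 1.22 in mouse 9, a 27.5-fold range. Its mean was -1.14 ± 1.89 (SD, n = 10), and its SD lay at the 99.96th percentile of all tested probes. Mice 4 to 7 lay between -3.56 and -2.57, mice 1, 2 and 3 between -0.94 and -0.32, and mice 8, 9 and 10 between 0.62 and 1.22. The widest gap, 1.63, was that between mouse 6 and mouse 2. Cy5 signals of *Pck1* ran from 2848 to 70261, while the pool on the same spots ran from 12859 to 21000 and had an SD of 0.12 (adjusted p = 4.16e-08).

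Values within a slide show the same differences. On slide 2, *Pck1* was -0.39 in mouse 3 and -3.05 in mouse 4, and *Dgat2* was 0.72 and -1.95. On slide 4, *Pck1* was -3.50 in mouse 7 and 0.62 in mouse 8, and *Dgat2* was -2.20 and 0.77. The mice of slides 1, 3 and 5 differed less, by 0.62, 0.99 and 0.12 for *Pck1*. *Cd36* ran the other way on the same slides, at -0.27 and 0.13 on slide 2 and 0.03 and -0.15 on slide 4. The slide, tested with limma's moderated F test, passed the adjusted threshold for 0.0% of all probes (0 of 25062). An unadjusted p under 0.05 was found for 1013 of them. Of the 12 probes of these genes, 0 passed, and the unadjusted count was also 0. With median centring in place of loess the adjusted counts stayed at 0, but the unadjusted ones were 2443 and 2. On slides 2 and 4, mice 4 and 7 lay beside mice 3 and 8, so the wide split between mice fell into the error of this test. It could thus hardly detect a slide effect, and its counts do not show that the slides were alike.

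Other genes of the pathway were taken from a list of 38, of which 36 were tested with 1 probe each, the brightest. The variance test passed for 33 of them, against 59.7% of all probes, and their median SD was 0.41, against 0.18 over all probes. The list was chosen with earlier results of these data known, and the values over all probes are not limited to the brightest of each gene. These contrasts are therefore description only. Mice 4 to 7 held the 4 lowest values in 20 of the 36 and the 4 highest in 7, against 23.2% and 19.2% of all probes. These orders were computed on the loess values only. By function, the low order held for 6 of 15 genes of uptake and activation, 3 of 5 for the backbone, 5 of 10 for acylation and phosphatidate, 2 of 2 for storage and 4 of 4 transcription factors (*Pparg*, *Cebpa*, *Mlxipl* and *Srebf1*).

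The largest SD in this list was that of *Slc2a4*, the insulin-regulated glucose transporter, which ranged from -2.65 in mouse 7 to 0.91 in mouse 9 (SD 1.47). *Mogat1* and *Mogat2*, acyltransferases that make diacylglycerol from monoacylglycerol, followed with SDs of 1.09 and 1.04, and both were lowest in mouse 7, at -2.15 and -2.42, and highest in mouse 9. *Pcx*, the pyruvate carboxylase that feeds glyceroneogenesis upstream of *Pck1*, ranged from -1.94 in mouse 7 to 0.27 in mouse 9. *Agpat9*, another glycerol 3-phosphate acyltransferase, ranged from -2.07 in mouse 7 to 0.87 in mouse 9.

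Some of the listed genes differed little between mice. *Agpat1* had an SD of 0.09 (adjusted p = 0.0854), *Slc27a4*, a fatty acid transport protein, 0.10 (adjusted p = 0.593), and *Slc27a1*, another of that family, 0.11 (adjusted p = 0.0247). The genes in which mice 4 to 7 were the 4 highest, as for *Cd36*, were *Acsl3*, *Acsl4* and *Acsl5*, which activate fatty acids with coenzyme A, the carrier gene *Fabp5*, *Got2*, *Agpat4* and *Agpat5*. *Fabp5* ranged from -0.59 in mouse 10 to 0.55 in mouse 4. Thus *Fabp4* was lowest and *Fabp5* highest in the same 4 mice. *Gpat2* and *Fitm1* were not well above background on enough arrays to be tested.

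**Figure D5:**
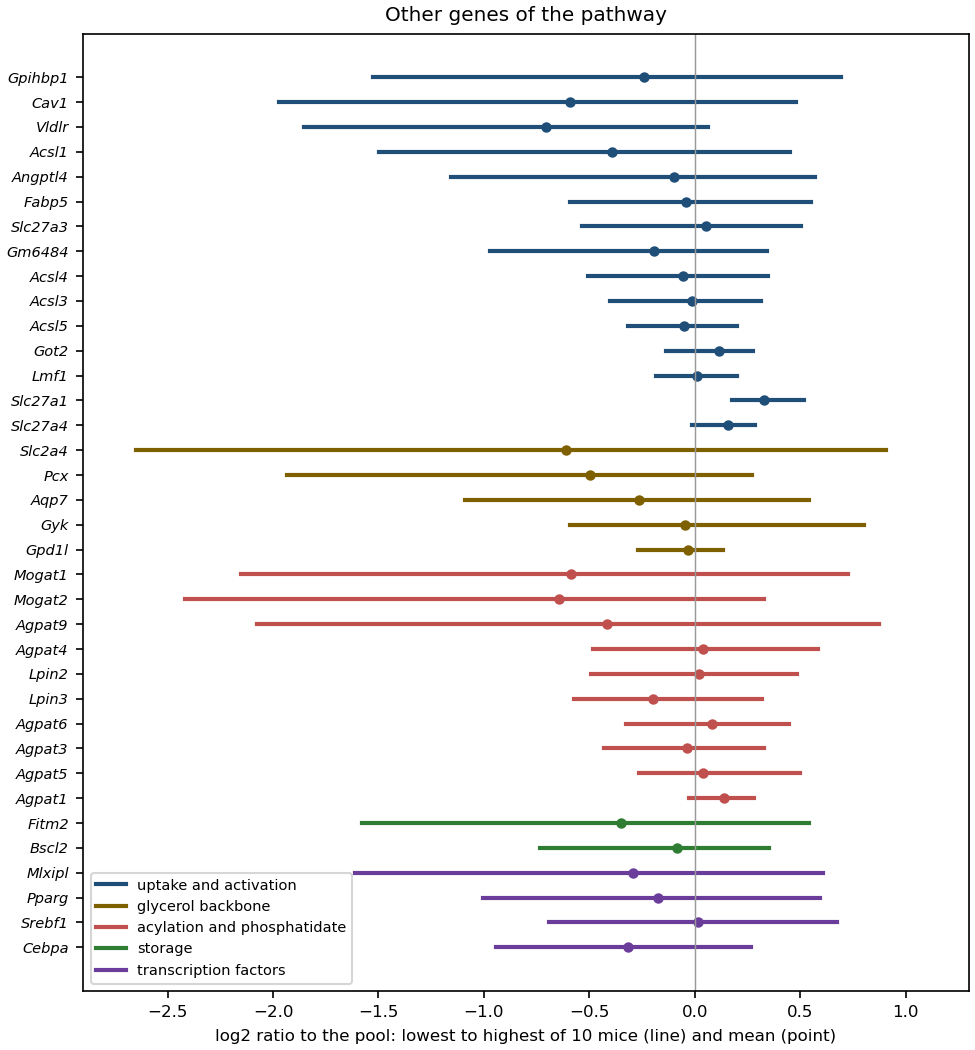
Log2 ratio to the pool (horizontal axis) of the 36 tested pathway genes (vertical axis), as a line from the lowest to the highest of 10 mice with a point at the mean, coloured by function. *Slc2a4* has the longest line, from -2.65 to 0.91, and *Agpat1*, *Slc27a4* and *Slc27a1* the shortest.

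For each gene, the 3 genes most like it among 13803 were found by the root mean square difference of log2 ratios over the 10 mice, after subtracting each gene's mean. Nearest to *Pck1* were *Ces1d* (0.29), *Adrb3* (0.32) and *Timp4* (0.34), whose lowest values were -3.29, -3.64 and -3.38. *Fabp4* was closest to *Ghr* (0.09), *Ptrf* (0.12) and *5730469M10Rik* (0.13), and *Dgat2* to *A530047J11Rik* (0.16), *Tns1* (0.17) and *Gstz1* (0.17). *Lpin1* was closest to *Cables1* (0.10), *Tusc5* (0.10) and *Abhd15* (0.11), and *Dgat1* to *Chchd6* (0.07), *Afap1* (0.08) and *Gys1* (0.08). *Gpd1* had *Pm20d1* (0.11), *Ttc28* (0.12) and *2010003K11Rik* (0.12) nearest, *Gpam* had *Niacr1*, *Mknk2* and *Pabpc1l* (0.11, 0.11 and 0.12), and *Agpat2* had *Ptprg*, *Rbm28* and *Magi1* (0.09, 0.10 and 0.10). *Cd36* had *Cdk17* (0.05), *Wdr74* (0.06) and *Pwp1* (0.06) nearest, and *Lpl* had *Abcd3*, *Cbwd1* and *Zbtb46* (0.07, 0.07 and 0.08). A low value can reflect only that both genes vary little, as for *Lpl* and *Cd36*.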

How the data were processed

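RNA of epididymal WAT of 10 mice was measured on 10 two-colour Agilent arrays, with Cy5 for the mouse and Cy3 for the common pool. The deposited scanner files, written by the authors with Agilent Feature Extraction (10.7.3.1 in the submitters' processing notes), hold spot and background intensity in each dye, not normalized, and a log10 ratio of Cy5 over Cy3 after background subtraction and dye normalization. The authors also deposited normalized log2 values for 30733 spots. By their range they are levels of Cy5, uncentred by gene, with array medians of 8.39 to 8.44 and a correlation of 0.993 to 0.999 across probes with log2 Cy5. Their normalization is not given in the sources used here, and they served only as an alternative.

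Mean intensities of 62976 spots were corrected by normexp (offset 50) and normalized by loess within arrays, and channel values by Aquantile between arrays (limma 3.58.1, R 4.3.3, Python 3.11.15). Control spots (leaving 59305) and outlier flags were then left out and spots of a probe averaged (55681 probes). Expressed meant well above background in both dyes on at least 5 arrays. Variances of log2 Cy5 and Cy3 were compared with the Pitman-Morgan test, the slide with limma's moderated F test, both at an adjusted p of 0.05 and both tested on simulated data. RNA was individual to each replicate by the labels. The number of arrays limits the precision. Genes and lists were chosen with earlier results of these data known. Named were all 10 genes, listed genes with the 3 largest and 3 smallest SDs, and the 3 most like genes each, while *Pcx*, *Agpat9*, *Fabp5*, the 4 transcription factors and the genes with mice 4 to 7 highest were chosen after their values were seen. RefSeq names were found for 22290 of 34797 symbols. Older symbols were kept as printed on the array.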

Additional observations from a re-analysis of the deposited data

Results flagged for a closer look

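Of 62 sets of 10 values searched for a mouse far from the rest (1.61% were found, and chance alone gives about 1 in 20), 1 stood out. On the second *Gpam* probe log2 of the pool's Cy3 signal before normalization was 7.58 in the array of mouse 4, and the next highest was 7.08, a gap of 0.540 of the whole range. The same array gave that probe its lowest log2 ratio, -1.34.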

How the results depend on the processing

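Without normalization between arrays, the variance test passed for 4694 of 25062 probes (14968 in the report), 4 of the 12 probes and 16 of the 36 listed pathway genes (33). With median centring in place of loess, the mean log2 ratio became 0.84 for *Lpl*, 0.58 for *Cd36*, 0.61 for *Gpd1* and 0.64 for *Agpat2*, moves of more than 1 SD between mice, and the SD became 0.37 for *Lpl* and 0.50 for *Cd36*. Within 1 SD, the same setting turned the means of *Fabp4* (0.45), *Dgat2* (0.45), *Dgat1* (0.37), *Lpin1* (0.27) and *Gpam* (0.04, first probe) positive. It did the same for *Cd36*, *Gpd1* and *Agpat2*, and gave -0.48 for *Pck1*. The mean of *Agpat2* also turned positive without mouse 4 or 7 (0.00 and 0.03), that of *Gpd1* without mouse 7 (0.02), and that of *Lpl* negative with both probes averaged (-0.06). In the authors' table the SD of *Cd36* was 0.36. Leaving out each mouse gave 13488 to 14421 probes over all, 9 to 10 probes of these genes and 31 to 33 listed genes. Without background subtraction, with the scanner's processed signals, the stricter filter or none, the unpaired F test, outlier spots kept (added after seeing the data) or the slide as a block, the counts stayed within 1.5 times. Of 160 alternatives for the SDs 158, and of 150 for the means 146, moved by less than the gene's own SD between mice. Mean ratios keep any dye bias, as dyes were not swapped. No paired analysis was possible because with 1 group no replicate number links samples of different groups, and the Pitman-Morgan test pairs only the dyes of a spot. Dim probes, such as the second of *Gpam*, limit what their values show.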
